A study of Homo sapiens with 9 samples.

Results

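The genes described here are those of the lysosome and of autophagy, in A549 cells grown attached to plastic or kept from attaching. A549 cells are an established line that came from a human lung adenocarcinoma. The members were chosen by gene symbol: cathepsins (CTS with 1 letter), LAMP genes, CD68, V-ATPase genes (ATP6V), ATG genes, the MAP1LC3 and GABARAP genes and SQSTM1. Of 53617 probe sets on the array, 16098 had 1 gene symbol here, and 42 of these, for 41 genes, followed the rule. There were 19 lysosome genes (15 cathepsins, 3 LAMP genes and CD68) and 21 autophagy genes. The remaining match, ATP6V0E2-AS1, is an antisense RNA and was put in neither class. None of the 22 protein-coding V-ATPase genes that RefSeq lists under such symbols had a named probe set, so the proton pump was not analysed here.

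All cells were cultured for 5 days, and each condition had 3 arrays. In the control condition the cells sat on ordinary attachment plates in normal medium, to which the solvent (Milli-Q water) had been added. The second condition used the same medium on low-attachment plates. The third combined low-attachment plates with FP001, an additive known here by that label alone, at 0.015% (w/v) in the medium, so it differed from the control in plate and additive together. Attachment replicate 1 was left out. It correlated with no other array (highest rank correlation −0.00191, against 0.961 to 0.985 among the other 8), and it read CTSD at 122 where the other arrays read 3105 or more. Median intensity on the 8 arrays used was 23.3 to 24.1. Nothing says that replicates came from separate cultures, so the spread that the p-values rest on is that between these arrays and may be technical. Of 8 genes listed as epithelial markers, VIM among them, 6 had a named probe set. All 6 were at or above the array median often enough to be tested. Of 7 alveolar markers 6 were named and 5 tested, and 0 of the 8 enzymes listed as typical of A549 had a named probe set.

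The lysosome is the acidic compartment in which cells break down proteins, lipids and sugars. Cathepsins are its proteases, the LAMP proteins line its membrane, and a proton pump keeps it acidic. Autophagy delivers parts of the cell to it: ATG proteins build a double membrane, small proteins of the ATG8 family (LC3 and GABARAP) are attached to that membrane, and receptors such as SQSTM1 (p62) bind the cargo. The transcription factor TFEB is known to switch on genes of both systems, and the kinase complex TORC1 restrains TFEB and autophagy when nutrients are plentiful.

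Intensities are the authors' values on a linear scale. Which part of a transcript each probe set reads is uncertain here. Group means are mean log2 values turned back to that scale. A gene was tested where its probe set was at or above the array median on at least 3 of the 8 arrays. This held for 17 of the 19 lysosome and 20 of the 21 autophagy genes. The exceptions were CTSG, LAMP3 and MAP1LC3C, with group means of 16.5 to 22.5, under the array median. Fold changes carry a standard error (SE) from limma. Adjustment was by Benjamini-Hochberg across the 10916 genes tested, and a gene was called at an adjusted p under 0.05. Each of the 8 arrays was also left out in turn, and the number of those 8 fits in which a call was kept is given beside it. Leaving out an array of the group not compared keeps the fold change and alters only the estimated spread and the genes tested. Such fits alone kept the calls of SQSTM1, TFEB and TOLLIP in normal medium and of CSF1R, SGSH, GALNS, CST6 and FNIP2 with FP001. With a single attachment array left, that array is assumed to vary like the arrays of the other groups.

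On low-attachment plates in normal medium, several cathepsins were higher than on attachment plates, and few autophagy genes were called. Of the 17 lysosome genes, 4 rose (CTSO, CTSF, CTSC and CTSD), 1 fell (CTSV) and 12 were not called. Over all genes 10.1% were called in this comparison, 4.31% as rises and 5.76% as falls. Quantile normalization turned that split of all genes from 471 rises and 629 falls to 612 and 512. The 3 low-attachment arrays lay above both attachment arrays for 9 lysosome genes and below for 2, and for 3 and 2 autophagy genes, against 22.2% and 23.4% of all genes. The median log2 fold change of the lysosome genes was 0.25, against 0.01 over all genes, and 13 of the 17 were above 0. Of the 20 autophagy genes, 1 rose (SQSTM1), 0 fell and 19 were not called, and their median log2 fold change was 0.03. These are bulk RNA values, so a change in the share of cells and a change in RNA per cell cannot be told apart.

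**Figure D1:**
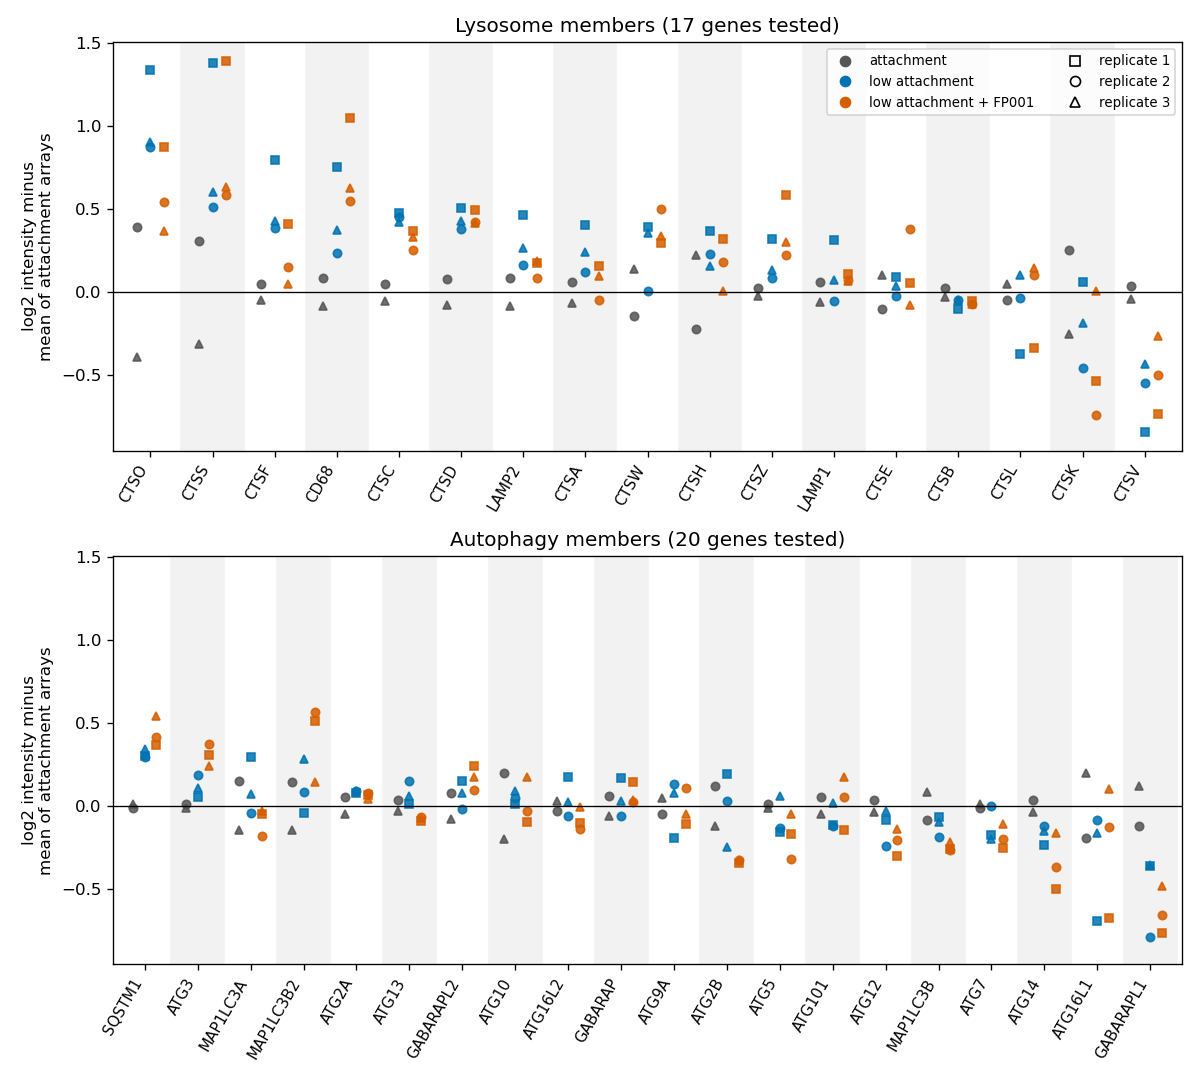
Each point is 1 array: log2 intensity of a member minus the mean of the 2 attachment arrays, for the 17 lysosome genes (top) and 20 autophagy genes (bottom) tested, ordered by the difference between low-attachment and attachment plates. Colour gives the condition and shape the replicate number. The low-attachment points of CTSO, CTSF, CTSC and CTSD lie above both attachment points and those of CTSV below, while most autophagy genes scatter around 0.

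Array by array, the median deviation of the 17 lysosome genes from their attachment mean was 0.39, 0.12 and 0.24 (log2) on low-attachment replicates 1, 2 and 3, and 0.29, 0.18 and 0.15 on FP001 replicates 1, 2 and 3. For the 20 autophagy genes it was −0.02, −0.03 and 0.04, and −0.11, −0.10 and −0.02. The 2 attachment arrays deviated by 0.05 and −0.05 for the lysosome genes and by 0.03 and −0.03 for the autophagy genes. All 6 low-attachment arrays thus lay above both attachment arrays for the lysosome genes. For the autophagy genes the low-attachment arrays in normal medium overlapped or exceeded the attachment range, and FP001 replicates 1 and 2 lay below it. Over all genes the deviation was between −0.01 and 0.02 on every array. This summary is a description of the members, with no test.

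Epithelial markers also differed between these groups. Of the 6 tested, 1 rose and 1 fell in normal medium, and 2 rose and 1 fell with FP001. These are 33.3% and 50% of the list, against 10.1% and 19.5% of all genes. KRT19, a keratin of simple epithelia, read 212 and 160.1 on attachment plates, 514, 335 and 310 on low-attachment plates and 666, 506 and 466 with FP001. It rose 2.04-fold (adjusted p = 0.0158, 7 of 8 fits, lost without attachment replicate 3) and 2.93-fold (adjusted p = 0.00135, 8 of 8 fits). KRT18 rose 1.23-fold with FP001 (adjusted p = 0.00917, 7 of 8 fits, lost without attachment replicate 2). KRT7 fell 1.45-fold in normal medium (adjusted p = 0.0422, 3 of 8 fits, those without low-attachment replicate 3 or FP001 replicate 1 or 2). EPCAM, an adhesion protein of epithelial cells, fell 1.44-fold with FP001 (adjusted p = 0.042, 2 of 8 fits, those without low-attachment replicate 1 or FP001 replicate 1). KRT8 and VIM were not called, and 0 of 5 alveolar markers were. The 6 genes listed as epithelial include VIM. Their summed intensity was 4502 to 4652 on attachment, 4719 to 5016 on low-attachment and 5392 to 5954 on FP001 arrays. Most of this sum was KRT18, which read 3478 and 3705, 3640 to 3770.5 and 4288 to 4579 on these arrays. Only KRT18 and KRT19 of the 6 had log2 fold changes above 0 in the comparisons with attachment. The part of these markers in the results on the members was not tested.

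CTSD, the main aspartic protease of the lysosome, read 3461 and 3105 on the attachment arrays. It read 4667, 4274 and 4414 on the low-attachment arrays and 4627, 4390.2 and 4378 with FP001. Both low-attachment groups lay above the attachment arrays without overlap. CTSD rose 1.36-fold in normal medium (log2 fold change 0.44 ± 0.07, adjusted p = 0.00429) and 1.36-fold with FP001 (0.45 ± 0.07, adjusted p = 0.00246). Both calls were kept in 8 of 8 fits, and CTSD was the only member of which that held.

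CTSC (dipeptidyl peptidase 1), an exopeptidase that activates other proteases, read 445 and 415 on attachment plates. On low-attachment plates it read 597, 588 and 576, and with FP001 554, 512 and 542. All low-attachment values lay above the attachment values, and the FP001 values lay between the other groups. The rise was 1.37-fold in normal medium (0.45 ± 0.08, adjusted p = 0.00641) and 1.25-fold with FP001 (0.32 ± 0.08, adjusted p = 0.0199). The first call was lost without attachment replicate 3 (adjusted p = 0.0598) and kept in 7 of 8 fits. The second was kept in 5 of 8 and lost without either attachment array or FP001 replicate 1 (adjusted p up to 0.115).

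CTSO, a cysteine protease, had the largest fold change of the members. It read 76.7 and 44.5 on attachment plates, 148, 107 and 109 on low-attachment plates, and 107, 85.2 and 75.5 with FP001. The attachment arrays lay far apart, and FP001 replicate 3 fell between them. CTSO rose 2.06-fold in normal medium (1.04 ± 0.23, adjusted p = 0.0185). Without attachment replicate 3 the log2 fold change was 0.65 and the call was lost (adjusted p = 0.145). Without attachment replicate 2 it was 1.43. With FP001 the difference from attachment was 1.51-fold and was not called (0.60 ± 0.23, adjusted p = 0.0912).

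CTSF, another cysteine protease, read 166 and 156 on attachment plates, 279, 209.8 and 216 on low-attachment plates and 214, 179 and 167 with FP001. No low-attachment value overlapped the attachment values, although FP001 replicate 3 came within 1 unit of them. The rise was 1.45-fold in normal medium (0.53 ± 0.14, adjusted p = 0.0382), and with FP001 the difference was 1.15-fold and not called (0.21 ± 0.14, adjusted p = 0.323). The call in normal medium was kept in 3 of 8 fits: those without low-attachment replicate 2, FP001 replicate 1 or FP001 replicate 3. Over the 8 fits its adjusted p ran from 0.0233 to 0.178.

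CTSV (cathepsin L2), a close relative of CTSL, moved the other way. It read 141 and 133 on attachment plates, 76.3, 93.8 and 101 on low-attachment plates and 82.5, 96.7 and 114 with FP001, so both low-attachment groups lay below the attachment arrays. The fall was 1.52-fold in normal medium (−0.61 ± 0.15, adjusted p = 0.0293) and 1.41-fold with FP001 (−0.50 ± 0.15, adjusted p = 0.0421). The first call was kept in 4 of 8 fits and lost without either attachment array or without replicate 1 or 2 of the low-attachment arrays. The second was kept in 3 of 8, those that left out FP001 replicate 3 or, in normal medium, replicate 1 or 3. CTSL itself was not called in either comparison (−0.10 ± 0.16 and −0.03 ± 0.16, adjusted p = 0.732 and 0.916).

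**Figure D2:**
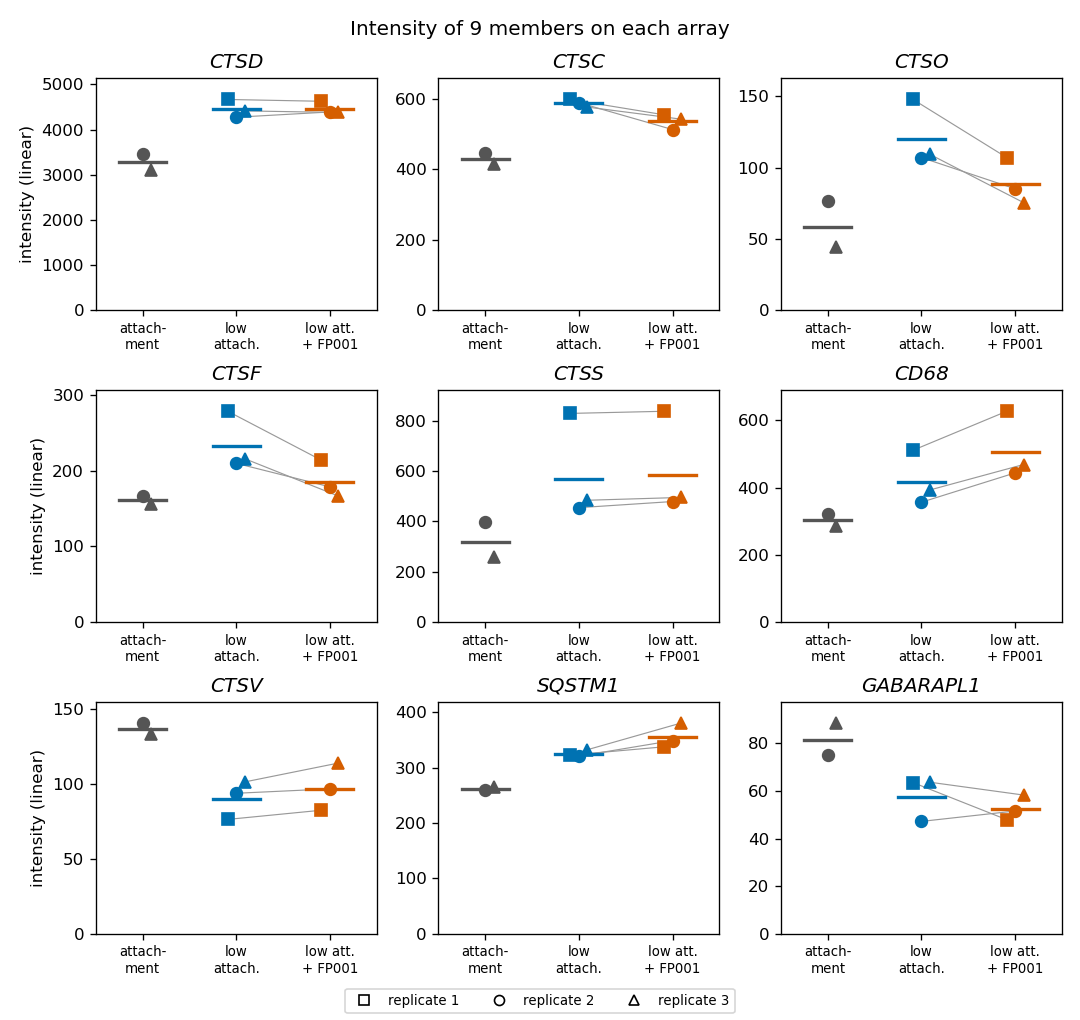
Intensity (linear scale, from 0) of 9 members on each of the 8 arrays, by condition; shape is the replicate number, the bar is the group mean, and grey lines join low-attachment and FP001 arrays of the same number. CTSD stays at 4274 to 4667 on all 6 low-attachment arrays, CTSO and CTSF are lower at the FP001 end of every grey line, and CD68 is higher there.

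CTSS, an elastin-degrading cathepsin best known from antigen-presenting cells, had a large difference and a large spread. It read 396 and 257 on attachment plates, 829, 455 and 484 on low-attachment plates and 838, 479 and 495 with FP001. All 6 low-attachment values exceeded both attachment values, and the array numbered 1 was far above the rest in each low-attachment group. The differences of 1.78-fold (0.83 ± 0.30, adjusted p = 0.106) and 1.83-fold (0.87 ± 0.30, adjusted p = 0.0634) were not called.

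CTSZ, a carboxypeptidase, read 476 and 460.4 on attachment plates, 584, 498 and 514 on low-attachment plates and 703, 546 and 576 with FP001. Its groups did not overlap in either comparison with attachment. Only the 1.29-fold rise with FP001 was called (0.37 ± 0.12, adjusted p = 0.0471), in 2 of 8 fits: those without low-attachment replicate 1 or FP001 replicate 2. In normal medium the difference was 1.13-fold (0.18 ± 0.12, adjusted p = 0.35). CTSB, often among the most studied cathepsins in cancer, read 73.2 to 79.9 on all 8 arrays, and its log2 fold changes were −0.07 ± 0.09 in both comparisons with attachment (adjusted p = 0.672 and 0.62). The remaining tested cathepsins (CTSA, CTSE, CTSH, CTSK and CTSW) were not called in any comparison.

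CD68, a heavily glycosylated relative of the LAMP proteins, read 321 and 286 on attachment plates. It read 511, 356 and 393 on low-attachment plates and 627, 444 and 468 with FP001, above the attachment arrays in both groups. The 1.37-fold difference in normal medium was not called (0.45 ± 0.17, adjusted p = 0.122). The 1.67-fold rise with FP001 was called (0.74 ± 0.17, adjusted p = 0.0146), in 6 of 8 fits, and lost without attachment replicate 2 or 3 (adjusted p up to 0.0922). CD68 is best known as a macrophage marker. Of 12 other macrophage markers 6 had a named probe set. Their summed intensity was 224 to 257 on attachment, 253 to 264 on low-attachment and 231 to 269 on FP001 arrays. CD163 and MSR1 were under the array median on all 8 arrays. CSF1R was the 1 marker of 4 tested that was called. This is 25% of the list with FP001, near the 19.5% of all genes. The call was a 1.34-fold rise with FP001 (adjusted p = 0.0482), from a mean of 30.0 to 40.2. That call was kept in 1 of 8 fits, the one without low-attachment replicate 1. The part of these markers in the CD68 result was not tested.

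LAMP1 and LAMP2, the main proteins of the lysosomal membrane, were not called. LAMP2 read 326 and 289.95 on attachment plates and 424, 344 and 370.3 on low-attachment plates, without overlap, a difference of 1.23-fold (0.30 ± 0.10, adjusted p = 0.0997). With FP001 it read 348, 326 and 349.7, overlapping the attachment arrays (0.15 ± 0.10, adjusted p = 0.329). LAMP1 read 554 and 511 on attachment plates, and its log2 fold changes were 0.11 ± 0.11 and 0.08 ± 0.11 (adjusted p = 0.536 and 0.597).

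With FP001 against attachment plates, the lysosome genes again counted 4 rises (CTSC, CTSD, CTSZ and CD68) and 1 fall (CTSV) among 17. Over all genes 19.5% were called in this comparison, 8.08% as rises and 11.4% as falls, and quantile normalization turned the split from 882 and 1244 to 1241 and 968. The FP001 arrays lay above both attachment arrays for 8 lysosome genes and below for 2, against 26.5% and 26.2% of all genes, and for 3 and 8 autophagy genes. The median log2 fold change of the lysosome genes was 0.17, against 0.02 over all genes. Of the 20 autophagy genes, 2 rose (SQSTM1 and ATG3) and 2 fell (GABARAPL1 and ATG14), a share near that over all genes, with a median of −0.08. Both comparisons used the same 2 attachment arrays, so the genes called in both (CTSC, CTSD, CTSV and SQSTM1) are not independent evidence for each other.

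**Figure D3:**
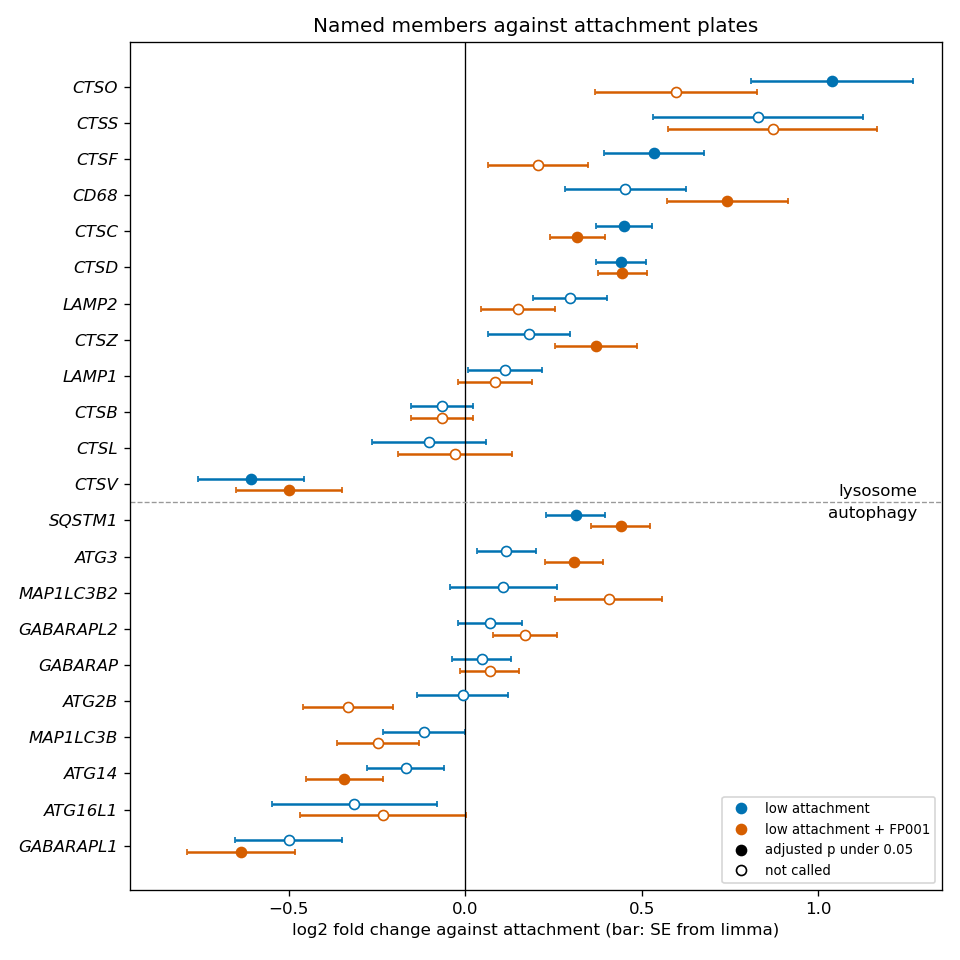
Log2 fold change (horizontal axis, bars are SE from limma) of 22 members against attachment plates, for low-attachment plates in normal medium and with FP001; filled points are called at an adjusted p under 0.05. CTSD and CTSC are filled on the right and CTSV on the left for both conditions, CTSO and CTSF are filled for normal medium only, and CD68, CTSZ, ATG3, ATG14 and GABARAPL1 for FP001 only.

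SQSTM1, the receptor that carries ubiquitinated cargo into autophagosomes, was the autophagy gene called in both comparisons. It read 260 and 264 on attachment plates, 323, 321 and 333 on low-attachment plates and 338, 349 and 381 with FP001. The 3 groups did not overlap. The rise was 1.24-fold in normal medium (0.31 ± 0.08, adjusted p = 0.0405) and 1.36-fold with FP001 (0.44 ± 0.08, adjusted p = 0.00612). The first call was kept in 2 of 8 fits, those without FP001 replicate 1 or 3. The second was kept in 7 of 8 and lost without attachment replicate 2 (0.0543).

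GABARAPL1, an ATG8 protein, read 74.9 and 88.5 on attachment plates, 63.5, 47.2 and 63.6 on low-attachment plates and 47.9, 51.6 and 58.2 with FP001. Every low-attachment value lay below both attachment values. The 1.41-fold difference in normal medium was not called (−0.50 ± 0.15, adjusted p = 0.0619), and the 1.55-fold fall with FP001 was (−0.64 ± 0.15, adjusted p = 0.017). That call was kept in 5 of 8 fits and lost without either attachment array or FP001 replicate 1 (adjusted p up to 0.116).

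The other ATG8 genes were not called. GABARAP read 1848 to 2163 on all 8 arrays (0.05 ± 0.08 and 0.07 ± 0.08, adjusted p = 0.766 and 0.584). GABARAPL2 had log2 fold changes of 0.07 ± 0.09 and 0.17 ± 0.09 (adjusted p = 0.663 and 0.205). MAP1LC3B, the LC3 gene used most often as a marker of autophagosomes, read only 26.7 to 34.0, close to the array median, with −0.12 ± 0.12 and −0.25 ± 0.12 (adjusted p = 0.559 and 0.156). MAP1LC3B2, a near-identical copy of it, read 63.2 to 103, with 0.11 ± 0.15 and 0.41 ± 0.15 (adjusted p = 0.696 and 0.0847). Probe sets of such copies may read each other's transcripts, so the values of both are uncertain.

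Among the ATG genes 0 of 13 were called in normal medium, against 10.1% of all genes. With 13 genes, 0 is not far from that share. ATG3, the enzyme that joins ATG8 proteins to lipid, read 347 and 343 on attachment plates, 358, 393 and 372 on low-attachment plates and 427, 447 and 408 with FP001. The 3 groups did not overlap, and the 1.24-fold rise with FP001 was called (0.31 ± 0.08, adjusted p = 0.0276). It was kept in 4 of 8 fits and lost without either attachment array, FP001 replicate 1 or FP001 replicate 2. In normal medium the difference was 1.08-fold (0.12 ± 0.08, adjusted p = 0.404). ATG14, a subunit of the lipid kinase complex that starts autophagosome formation, read 161 and 153 on attachment plates, 134, 145 and 141 on low-attachment plates and 111, 122 and 140.4 with FP001. It fell 1.27-fold with FP001 (−0.34 ± 0.11, adjusted p = 0.0492), at the edge of the threshold, and the call was kept in 2 of 8 fits, those without low-attachment replicate 1 or FP001 replicate 3.

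ATG2B, a lipid transfer protein, read 213 and 181 on attachment plates, 224, 200.3 and 165 on low-attachment plates and 155, 157 and 156 with FP001. The FP001 values lay below all others, and the difference from attachment was not called (−0.33 ± 0.13, adjusted p = 0.0926). ATG16L1, which directs where ATG8 proteins are attached, had the lowest log2 fold change of the ATG genes in normal medium (−0.31 ± 0.23, adjusted p = 0.429), with values of 108 to 165 against 153 and 200.5. ATG101 was the 1 member with more than 1 probe set. Its brighter probe set had log2 fold changes of −0.08 and 0.03 against attachment and the other −0.02 and −0.04, all smaller than 0.11, the SE of the first. The median log2 fold change of the 13 ATG genes was −0.01 in normal medium and −0.08 with FP001. ATP6V0E2-AS1, outside both classes, had log2 fold changes of 0.17 ± 0.14 and 0.30 ± 0.14 and was not called (adjusted p = 0.457 and 0.15).

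FP001 was then set against normal medium on low-attachment plates. None of the 38 members tested was called by limma (lowest adjusted p = 0.327), against 0.11% of all genes (0.0366% as rises and 0.0733% as falls), and 3 members (CTSF, ATG2B and ATG3) had an unadjusted p under 0.05. Same-numbered arrays of these groups varied together, so the replicate number was also fitted as a block. With it 1.3% of all genes were called and again 0 of 38 members, and CTSF had the lowest adjusted p (0.058). The groups did not overlap for 0 lysosome genes higher and 1 lower with FP001, and for 2 and 4 autophagy genes, against 8.48% and 9.01% of all genes. The median log2 fold change was 0.00 for the lysosome genes, −0.05 for the autophagy genes and 0.01 over all genes.

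**Figure D4:**
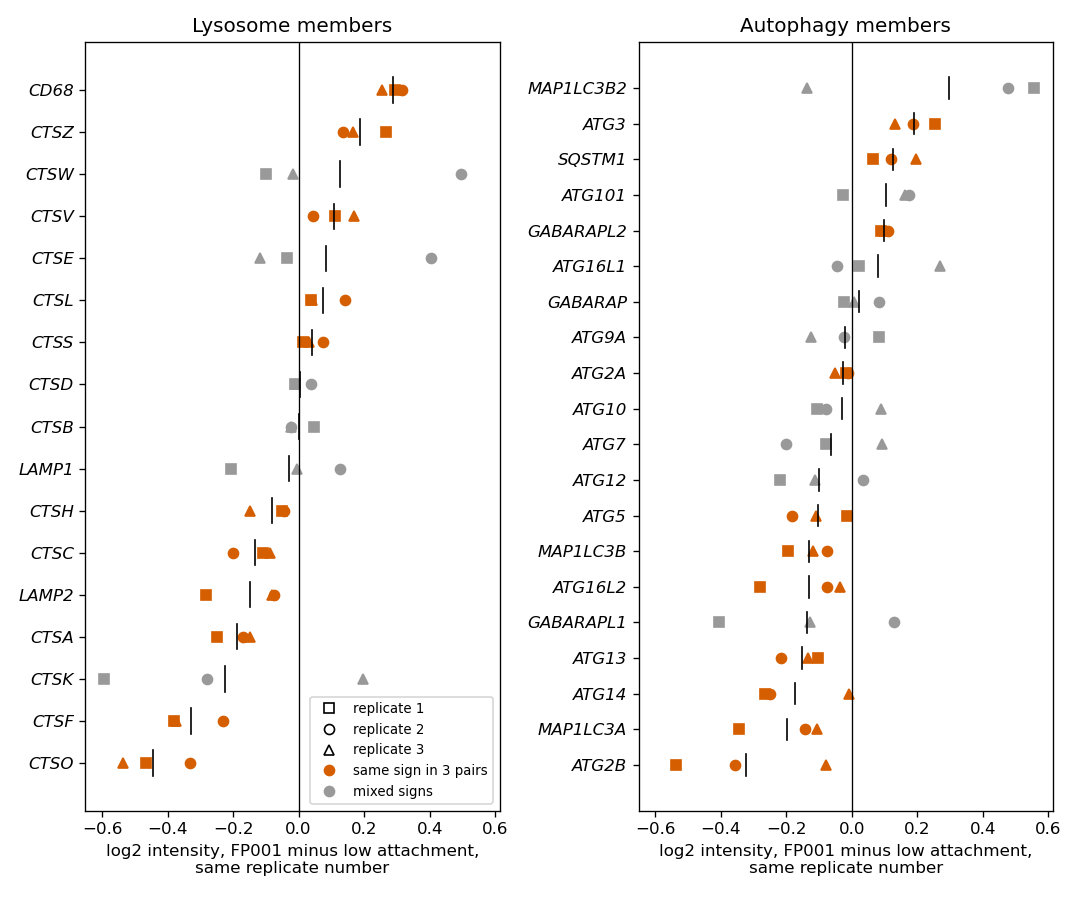
Difference in log2 intensity between the FP001 array and the low-attachment array of the same replicate number, 3 points a gene (shape is the number, the black tick their mean), for 17 lysosome and 20 autophagy genes. CTSO, CTSF, CTSA, LAMP2, CTSC and CTSH are lower with FP001 in all 3 pairs, and CD68, CTSZ, CTSV, CTSL and CTSS are higher in all 3.

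In same-numbered pairs, 5 of 17 lysosome genes were higher with FP001 in all 3 pairs, 6 were lower in all 3 and 6 were mixed, where 20.8% and 20.7% of all genes were higher and lower. The members with the largest differences were these. As log2 differences, FP001 minus normal medium, CTSO had −0.47, −0.33 and −0.53 in pairs 1, 2 and 3 (log2 fold change −0.44 ± 0.20, adjusted p = 0.44, or 0.124 with the block). CTSF differed by −0.38, −0.23 and −0.38 (adjusted p = 0.363, or 0.058). CD68 differed by 0.29, 0.32 and 0.25 (adjusted p = 0.511, or 0.088), and CTSZ by 0.27, 0.13 and 0.16 (adjusted p = 0.521, or 0.18). CTSD differed by −0.01, 0.04 and −0.01. Of the 20 autophagy genes 3 were higher in all 3 pairs (ATG3, SQSTM1 and GABARAPL2) and 8 were lower. None of these differences passed the test.

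The arrays numbered 1 stood out for the lysosome genes in both low-attachment groups. For 10 of the 17 lysosome genes (CTSS, CTSD, CTSF, CTSC, LAMP1, CTSH, CD68, CTSA, CTSZ and CTSO) the array numbered 1 was the highest of its group in normal medium and again with FP001, against 18.4% of all genes. CTSL and CTSV were the 2 for which it was the lowest in both groups, against 20.9% of all genes. For the autophagy genes these counts were 2 and 5 of 20. This pattern was noticed in the data and is given without a test. Attachment replicate 1, the array of that number on attachment plates, is the one left out.

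The promoters of the members were searched for CACGTG, the core that TFEB and related factors bind, for its longer palindrome TCACGTGA, and for the CLEAR consensus, which adds a G before and a C after that. Each longer motif contains the shorter ones, and each reads the same on both strands. RefSeq windows (GRCh38.p14, 250 bases before to 50 after a transcript start) were at hand for 33 of the 41 members, in 36 windows, and CTSS, CTSO, CTSB and LAMP2 are among the 8 without one. CACGTG was found for 4 of 12 lysosome genes and 2 of 20 autophagy genes, against 8.77% of all genes in the table (7.26% of all windows). TCACGTGA was found for LAMP1, CTSA and ATG3, against 1.18% of all genes, and the CLEAR consensus for 0 of 33, against 0.421%. These 6 promoters are shown because they hold every match among the members, and because 4 of the genes (CTSD, CTSF, ATG3 and ATG14) were called in at least 1 comparison. Each is written 5′ to 3′ on the strand of its gene and ends at the base before the start, with CACGTG in capitals.
CTSD: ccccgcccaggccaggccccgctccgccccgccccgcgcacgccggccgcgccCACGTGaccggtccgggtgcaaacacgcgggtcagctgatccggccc
CTSF: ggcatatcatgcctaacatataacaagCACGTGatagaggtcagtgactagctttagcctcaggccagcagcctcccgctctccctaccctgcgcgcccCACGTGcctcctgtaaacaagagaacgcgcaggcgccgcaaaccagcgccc
CTSA: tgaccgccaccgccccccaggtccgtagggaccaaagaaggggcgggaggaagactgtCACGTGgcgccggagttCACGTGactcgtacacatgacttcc
LAMP1: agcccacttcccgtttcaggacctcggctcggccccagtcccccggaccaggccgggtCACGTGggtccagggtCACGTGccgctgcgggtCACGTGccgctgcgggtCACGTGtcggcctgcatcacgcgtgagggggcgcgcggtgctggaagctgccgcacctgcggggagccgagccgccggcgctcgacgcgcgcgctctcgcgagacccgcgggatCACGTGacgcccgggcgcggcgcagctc
ATG14: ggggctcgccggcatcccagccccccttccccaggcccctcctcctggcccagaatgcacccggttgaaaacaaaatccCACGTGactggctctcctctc
ATG3: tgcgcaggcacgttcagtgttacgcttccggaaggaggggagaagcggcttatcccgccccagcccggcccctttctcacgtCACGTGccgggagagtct

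These stretches lie at chr11:1763928-1764027 (CTSD, minus strand), chr11:66568607-66568756 (CTSF, minus), chr20:45891235-45891334 (CTSA, plus), chr13:113296989-113297238 (LAMP1, plus), chr14:55411831-55411930 (ATG14, minus) and chr3:112561963-112562062 (ATG3, minus). LAMP1 held 6 matches, 5 of them in the stretch shown and 1 across the start (−1 to 5), and its RNA was not called. CTSD held 1 (−47 to −42) and rose in both comparisons with attachment. CTSF held 2, at −123 and −51, CTSA 2, at −42 and −25, and ATG14 1, at −21. ATG3 held 2, 1 at −18 and 1 after the start, at 6. CTSC, CTSV, CTSZ, CD68, SQSTM1 and GABARAPL1, the other called members with a window, held no match in it. A match is a description of the sequence and not a measured binding site.

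Other genes of the same pathways were taken from further lists, which were chosen with earlier results of these data known. Of 36 further lysosomal hydrolases and their activators 16 were tested, and 4 rose and 0 fell in normal medium (median log2 fold change 0.21), and 3 rose and 0 fell with FP001 (median 0.24). These are 25% and 18.8% of the list, against 10.1% and 19.5% called over all genes, so the share with FP001 was near the background. SCPEP1, a serine carboxypeptidase, read 276 and 258 on attachment plates, 497, 410 and 409.96 on low-attachment plates and 497, 419.6 and 414 with FP001. It rose 1.64-fold (0.71 ± 0.12, adjusted p = 0.00439) and 1.66-fold (0.73 ± 0.12, adjusted p = 0.00237), and both calls were kept in 8 of 8 fits. SGSH and ARSA, which remove sulfate groups from heparan sulfate and from sulfatides, each rose 1.40-fold in normal medium (adjusted p = 0.0158 and 0.0243). The SGSH call was kept in 6 of 8 fits and lost without either attachment array. The ARSA call was kept in 4 of 8 and lost without either attachment array or without replicate 1 or 2 of the low-attachment arrays. With FP001 SGSH rose 1.27-fold (adjusted p = 0.0431, 2 of 8 fits: those without low-attachment replicate 1 or 2). GALNS, another sulfatase, rose in both comparisons with attachment. Its rise was 1.26-fold in normal medium (adjusted p = 0.033, 4 of 8 fits: those without low-attachment replicate 1 or an FP001 array). With FP001 it was 1.23-fold (adjusted p = 0.0356, 3 of 8 fits: those without a low-attachment array in normal medium).

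Of 21 further membrane and sorting proteins of the lysosome 9 were tested, and 1 rose in each comparison with attachment and 0 fell. This is 11.1% of the list, near the 10.1% of all genes in normal medium and below the 19.5% with FP001. The gene was CD63, a tetraspanin of late endosomes, which read 201 and 189 on attachment plates, 343, 263 and 277 on low-attachment plates and 349, 275 and 299 with FP001. The groups did not overlap the attachment arrays, and the rises were 1.50-fold (0.58 ± 0.13, adjusted p = 0.0207) and 1.57-fold (0.65 ± 0.13, adjusted p = 0.00833). Each was kept in 6 of 8 fits and lost without attachment replicate 2 or 3. The array numbered 1 read highest in each low-attachment group.

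Cystatins are the natural inhibitors of cysteine cathepsins, and 7 of 9 were tested. In normal medium 1 rose, the secreted CST3, by 1.38-fold (0.47 ± 0.10, adjusted p = 0.0166), from 493 and 486 on attachment plates to 736, 617 and 682. The call was kept in 6 of 8 fits and lost without either attachment array. This is 14.3% of the list, near the 10.1% of all genes. With FP001 5 of 7 rose (71.4%, against 8.08% of all genes called as rises), with a median log2 fold change of 0.35. The 3 largest were CST4 (1.40-fold, adjusted p = 0.0415), CST6 (1.34-fold, 0.0296) and CST7 (1.32-fold, 0.0429). CST7 read only 29.5 to 45.8 on the 8 arrays, not far above the array median. CST3 was also among the 5, at 1.27-fold (adjusted p = 0.0367). That call was kept in 3 of 8 fits, those without low-attachment replicate 1 or 2 or FP001 replicate 3. CST4 was called in 3 of 8 fits (those that left out attachment replicate 3, FP001 replicate 2 or, in normal medium, replicate 1), CST6 in the 3 without a low-attachment array in normal medium, and CST7 in 2 (those without attachment replicate 3 or FP001 replicate 3). All 7 cystatins had log2 fold changes above 0 in both comparisons with attachment, where 51.5% and 52.5% of all genes did. The lowest was 0.01 (CST5, in normal medium). All 5 alveolar markers tested were also above 0 in both, so this was not particular to the cystatins.

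**Figure D5:**
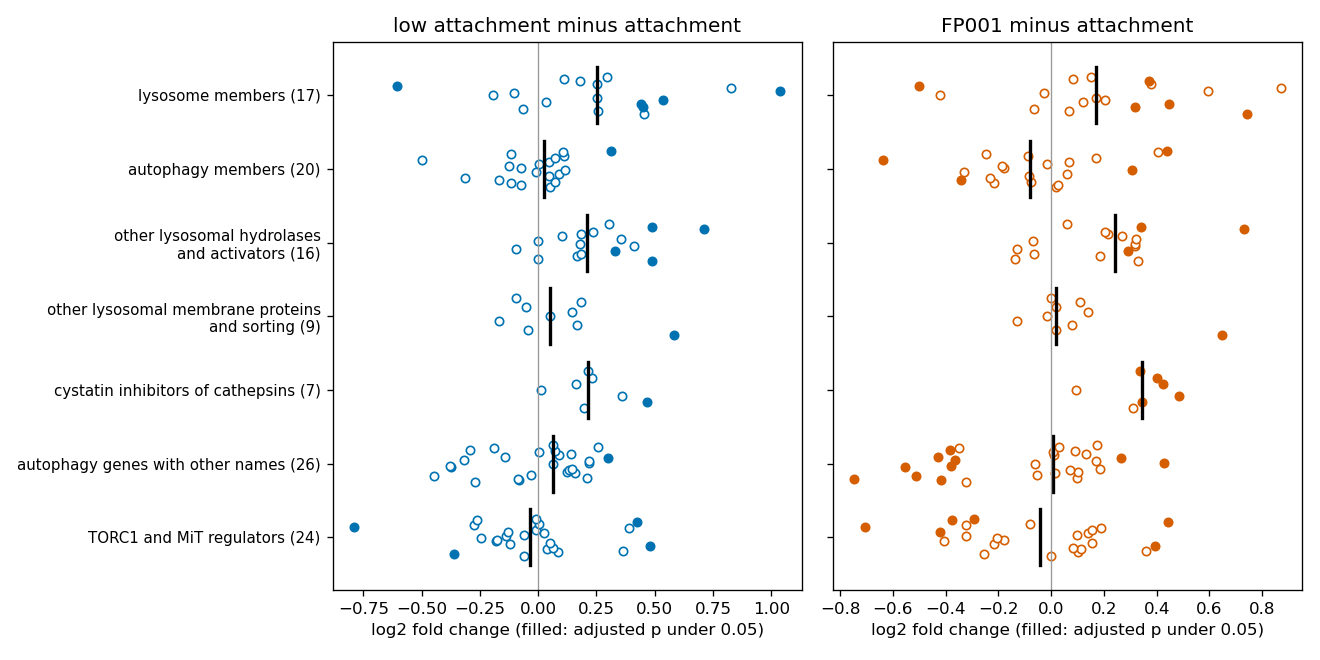
Log2 fold changes against attachment plates of the tested genes in 7 lists (number tested in parentheses), for low-attachment plates in normal medium (left) and with FP001 (right); filled points are called and black bars are list medians. The lysosome members and the other hydrolases have medians of 0.25 and 0.21 in normal medium, while autophagy members and autophagy genes with other names have medians of 0.03 and 0.06.

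Of 36 autophagy genes with other names 26 were tested. In normal medium 1 rose and 1 fell, and with FP001 2 rose and 8 fell. The shares called were 7.69% and 38.5%, against 10.1% and 19.5% of all genes. RB1CC1 (FIP200), a scaffold of the kinase complex that starts autophagy, read 444 and 405 on attachment plates, 329.6, 329 and 321 on low-attachment plates and 300.4, 279.8 and 286 with FP001. The 3 groups did not overlap. It fell 1.30-fold (−0.38 ± 0.08, adjusted p = 0.0184) in normal medium and 1.47-fold (−0.55 ± 0.08, adjusted p = 0.00173) with FP001. The first call was lost without attachment replicate 2 or low-attachment replicate 3, and the second was kept in 8 of 8 fits. BNIP3L, a receptor for mitochondria, fell 1.68-fold with FP001 against attachment (adjusted p = 0.000589, 8 of 8 fits) and was the only gene of these lists called between FP001 and normal medium (−0.66 ± 0.08, adjusted p = 0.0198, or 0.00226 with the block). That call was kept in 3 of 8 fits, those without an attachment array or low-attachment replicate 1. EPG5, a tether between autophagosome and lysosome, fell 1.43-fold with FP001 (adjusted p = 0.0316, 4 of 8 fits, lost without attachment replicate 2 or any FP001 array). TOLLIP, a cargo adaptor, rose 1.23-fold in normal medium (adjusted p = 0.0466) and 1.20-fold with FP001 (0.0485). The first of these was kept in 1 of 8 fits, that without FP001 replicate 1, and the second in 0.

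Of 31 regulators around TORC1 and TFEB 24 were tested, and 2 rose and 2 fell in normal medium, and 2 rose and 4 fell with FP001. The shares called were 16.7% and 25%, against 10.1% and 19.5% of all genes. TFEB read 30.0 and 32.0 on attachment plates, 38.7, 41.2 and 44.8 on low-attachment plates and 43.7, 41.9 and 40.7 with FP001, all not far above the array median. The low-attachment groups lay above the attachment arrays, with rises of 1.34-fold (0.42 ± 0.11, adjusted p = 0.0373) and 1.36-fold (0.44 ± 0.11, adjusted p = 0.0209). The first call was kept in 2 of 8 fits, those without FP001 replicate 1 or 3, and the second in 4 of 8, those without a low-attachment array in normal medium or without FP001 replicate 3. The first was also lost with no filter and with every probe set tested by itself (adjusted p up to 0.0666). Its relatives TFE3 and MITF were not called (0.00 ± 0.09 and −0.18 ± 0.19 in normal medium, adjusted p = 0.985 and 0.59).

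FNIP2, a partner of the folliculin complex that signals nutrient state to TFEB, rose 1.40-fold in normal medium (0.48 ± 0.11, adjusted p = 0.0249) and 1.31-fold with FP001 (adjusted p = 0.0363). The first call was kept in 5 of 8 fits (lost without either attachment array or low-attachment replicate 1) and the second in 3, those without a low-attachment array in normal medium. SESN1, a sestrin that restrains TORC1, fell 1.73-fold and 1.63-fold (adjusted p = 0.00124 in each), from 70.1 and 68.4 on attachment plates to 40.03, 38.7 and 41.3 in normal medium and 41.95, 41.8 and 43.8 with FP001. Both calls were kept in 8 of 8 fits. RRAGB, a Rag GTPase, fell 1.34-fold with FP001 (adjusted p = 0.0432) and was called in 2 of 8 fits, those without low-attachment replicate 1 or FP001 replicate 3.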

How the data were processed

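Total RNA of A549 cells was measured on 9 Affymetrix arrays. Per the labels' protocols, labelled cRNA was made from 100 ng of RNA by a 3′ protocol; which part of a transcript the probe sets read is uncertain here. The authors deposited linear intensities, for which the submitters' processing notes name MAS5; its settings were not given in the sources used here. Names came from the platform annotation that GEO holds, updated through RefSeq gene identifiers (16098 had 1 symbol, 0 several, 37519 none here).

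Log2 intensities of 8 arrays were used with no pseudocount and no further normalization; attachment replicate 1 was left out. Probe sets at or above the array median on at least 3 arrays were kept (27942, of them 11711 named), and the brightest stood for its gene (10916 genes). With 2 attachment arrays, a probe set above the median only there was dropped. Group means were fitted in limma 3.58.1 (in R 4.3.3, with lmFit and a trended eBayes, 5 residual and 5.6 prior degrees of freedom; two-sided; Benjamini-Hochberg; 0.05), and the fit was tested on simulated data. The members, lists and tests were chosen with earlier results of these data known. Named in full were called members, the 2 members of each class with the largest change in each comparison, textbook markers, and up to 3 called genes of each further list per comparison. Called marker genes, CTSA, CTSG, LAMP3, MAP1LC3C, ATG101, ATP6V0E2-AS1, TFE3, MITF and the remaining markers were named outside this rule, after their values were seen.

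Same-numbered low-attachment arrays without and with FP001 deviated together from their group means (correlations 0.483, 0.309 and 0.231 for numbers 1, 2 and 3). Between unlike numbers the correlations were 0.133 and 0.0905 for 2 with 3, and −0.353 to −0.263 where 1 array was numbered 1. Deviations of 3 arrays from their mean sum to 0, so the values for 2 and 3 depend in part on number 1. The numbers were taken to pair these arrays, which is less certain for 2 and 3. For the attachment arrays the correlations were −0.205 and 0.138 with low-attachment arrays of their number. The deviations of 2 arrays from their mean mirror each other, so pairing of the attachment arrays could not be judged. Precision is limited by how few arrays there are. Alternatives were all 9 arrays, other filters, 2 scalings, a pseudocount of 16, no trend, every probe set by itself, the replicate block and leaving out each array.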

Additional observations from a re-analysis of the deposited data

How the results depend on the processing

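The count of members called in normal medium against attachment (6) was 5 to 6 under the other filters, scalings and pseudocount, 4 without a trend, 2 with every probe set tested by itself, 9 with the replicate block, and 1 to 6 with an array left out. With FP001 against attachment (9 called) it was 6 to 10 under those settings and 2 to 10 with an array left out. Between FP001 and normal medium it was 0 throughout. With all 9 arrays, attachment replicate 1 included, 0 members and 0 genes were called in each comparison, the lysosome median was 1.18 and 1.15 and the autophagy median 0.17 and 0.12, and the log2 fold changes with FP001 of ATG3 (−0.54), CTSZ (−0.47), GABARAPL1 (1.09), BNIP3L (1.23), CST6 (−0.71), RRAGB (0.41) and CSF1R (−0.0724) and in normal medium of KRT7 (1.38) turned sign. Otherwise the lysosome median against attachment stayed above 0. With the replicate block it was 0.20 in normal medium and 0.12 with FP001. When an array was left out it was 0.18 to 0.32 in normal medium and 0.13 to 0.25 with FP001. The autophagy median ran from −0.0382 to 0.0613 and from −0.0974 to −0.0416, and it was 0.0711 and −0.0197 after quantile normalization. Between FP001 and normal medium, leaving out an array gave −0.0937 to 0.0009 for lysosome and −0.1066 to −0.0287 for autophagy genes.

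Over all genes, 1100, 2126 and 12 were called in the 3 comparisons. The first count was 362 to 1301 and the second 660 to 2305 with an array left out, and the second was 3877 of all kept probe sets tested by themselves. The third was 0 to 11 with an array left out, 0 without a trend, 1 with every probe set by itself and 142 with the replicate block. Whether the numbers of the block pair the attachment arrays could not be judged. With the block, CTSS (adjusted p = 0.0183), CD68 (0.0431) and GABARAPL1 (0.0278) were also called in normal medium. With FP001 against attachment, CTSS (0.00882) and ATG2B (0.0288) were also called, and ATG14 was not (0.0637). Among the other named genes the block ended the calls of TFEB (0.0536) and TOLLIP (0.0614) in normal medium and of TOLLIP (0.0704), FNIP2 (0.05), CST7 (0.0632), RRAGB (0.0557) and CSF1R (0.0803) with FP001, and it added EPG5 (0.0386) in normal medium. Between FP001 and normal medium it changed no call of a member and added KRT18 (0.0465) and KRT19 (0.014). Of the members, SQSTM1 in normal medium and CTSZ with FP001 lost their calls when all arrays were shifted to the same median. Quantile normalization ended those of ATG14 and CTSV with FP001, and no filter those of ATG14, CTSV and CTSZ with FP001. Of the other named genes, the shift ended the calls of GALNS and TOLLIP in both comparisons with attachment. It also ended those of SGSH and CSF1R with FP001. Quantile normalization also ended those of KRT7 in normal medium and of EPCAM, EPG5 and RRAGB with FP001. No filter ended those of KRT7 and TFEB in normal medium, TOLLIP in both and SGSH, CSF1R, CST4, CST7 and RRAGB with FP001. Without a trend, the members CTSF and SQSTM1 in normal medium and ATG14, CTSV and CTSZ with FP001 were lost. So were GALNS and TOLLIP in both comparisons with attachment, KRT7 in normal medium, and SGSH, CST3 and EPCAM with FP001. With every probe set tested by itself, only CTSC and CTSD of the members kept a call in normal medium. ATG14, CTSV and CTSZ lost theirs with FP001. In that setting FNIP2, GALNS and TOLLIP lost both calls against attachment, and ARSA, CD63, KRT7 and TFEB theirs in normal medium. SGSH, CSF1R, CST3, CST4, CST7, EPCAM, EPG5 and RRAGB lost theirs with FP001. The call of BNIP3L between FP001 and normal medium was lost without a trend and with every probe set by itself. The causes were not tested. Signals near the array median, as for MAP1LC3B and TFEB, limit what could be detected there.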
